A study of Pinctada fucata with 15 samples.

Results

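The 9 glutathione S-transferase probes followed here across the larval development of the pearl oyster Pinctada fucata are those whose annotation spells out the enzyme name (GST) in a list of the tyrosine metabolic pathway, out of 58883 probes on the array. A further probe of that list, annotated CBR-GST-11, is not a member and is described at the end. The study put a probe on that list because it changed consecutively from the trochophore stage to the juvenile on these same arrays, so the changes at the D-shaped, umbonal and juvenile steps are given as a description. The class of each GST comes from the annotation name, which the study took from the most similar protein of another species. Each probe stood for 1 unigene (an assembled transcript) and lay on 1 spot. In full, the soluble or unclassed GSTs were CUST_11562_PI429347424 (cytosolic 1), CUST_18671_PI429347424 and CUST_28047_PI429347424 (mu), CUST_25915_PI429347424 (sigma), CUST_53080_PI429347424 (pi), CUST_39791_PI429347424 and CUST_54455_PI429347424 (unclassed), and the microsomal ones were CUST_56433_PI429347424 and CUST_53245_PI429347424. The shared ending is left out from here on, and no probe sequence was used.

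The data are signals of 15 Agilent arrays with 1 dye, 3 arrays for each of 5 stages of cultures with no special treatment: fertilized eggs at 0 h, trochophore stage at 17 h, D-shaped stage at 48 h, umbonal stage at 14 days and juvenile at 35 days. The RNA came from pools of whole animals, so fewer cells of a type and less RNA per cell cannot be told apart, and since separate cultures are not named for the 3 pools, p-values measure only the spread between pools. The probes were designed from a transcriptome of the adult mantle, the tissue that secretes the shell.

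GSTs join the tripeptide glutathione to electrophilic compounds, which makes foreign chemicals and products of oxidation more soluble and easier to export. The mu, pi and sigma classes are soluble enzymes of the cytosol. The microsomal GSTs sit in membranes and belong to another protein family, and in mammals the first of them also reduces lipid peroxides. The zeta class, to which none of the 9 names belongs, carries out a step of tyrosine breakdown in many animals.

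Between 53.3% and 91.3% of the probe spots were well above background per array, the lowest share being on the fertilized egg array 1. On that array 18147 probes (30.8%) shared 1 lowest signal of 15.4, while on each of the other 14 arrays a single probe held the lowest signal. Results that use the eggs are therefore also given without it. Slide 1 carried the eggs, the trochophore stage and D-shaped arrays 1 and 2, and slide 2 carried D-shaped array 3, the umbonal stage and the juveniles, so the steps from eggs to trochophores and from umbonal larvae to juveniles lay within a slide, while between slides, slide and stage cannot be told apart except through the D-shaped stage, which lay on both. For the juvenile label, 2 shell matrix genes of the mantle were looked at: Pif was well above background on all 3 juvenile arrays and on 0 arrays of the earlier stages, and shematrin-4 on 3 juvenile arrays and on at most 1 array of any earlier stage. The study reported both as rising steeply in juveniles on these same arrays, so this is a description and no independent check. The labels of the other stages were not checked. Levels below are log2 of the processed signal after quantile normalization. A level is set only against the same probe at another stage.

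The highest mean lay in juveniles for 7 of the 9 GST probes and in D-shaped larvae for 2. The lowest mean lay at the trochophore stage for 7 probes, at the D-shaped stage for 1 and in juveniles for 1. Of these 7, microsomal GST 1 (CUST_53245) was not well above background on any egg or trochophore array. These arrays overlapped, so its lowest stage is not settled. For the probe lowest in juveniles, the pi GST (CUST_53080), the lowest stage depended on the normalization, as given below. Over all 53117 probes that were well above background at some stage, 21% had their highest mean in juveniles and 12.4% in D-shaped larvae, while the lowest mean was at the trochophore stage in 15.6%, at the D-shaped stage in 13% and in juveniles in 27.5%. Since the GST probes were listed for changes between these stages, their counts are not read against these shares. For the 3 GSTs that were well above background on all 15 arrays, the highest stage mean was 57.4-fold above the lowest (sigma GST, CUST_25915), 43.6-fold (cytosolic GST 1, CUST_11562) and 19.3-fold (pi GST, CUST_53080). In the others, some or all arrays of the lowest stage were not well above background. All 27 probe and array values of the umbonal stage and all 27 of the juveniles were well above background, against 16 of 27 at the trochophore stage. Of all probe spots, 80.9% to 91.3% were so on umbonal and juvenile arrays and 61.8% to 70.3% on trochophore arrays. The share also differed between slides, with 74.6% and 70.4% on D-shaped arrays 1 and 2 and 86.1% on D-shaped array 3.

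**Figure D1:**
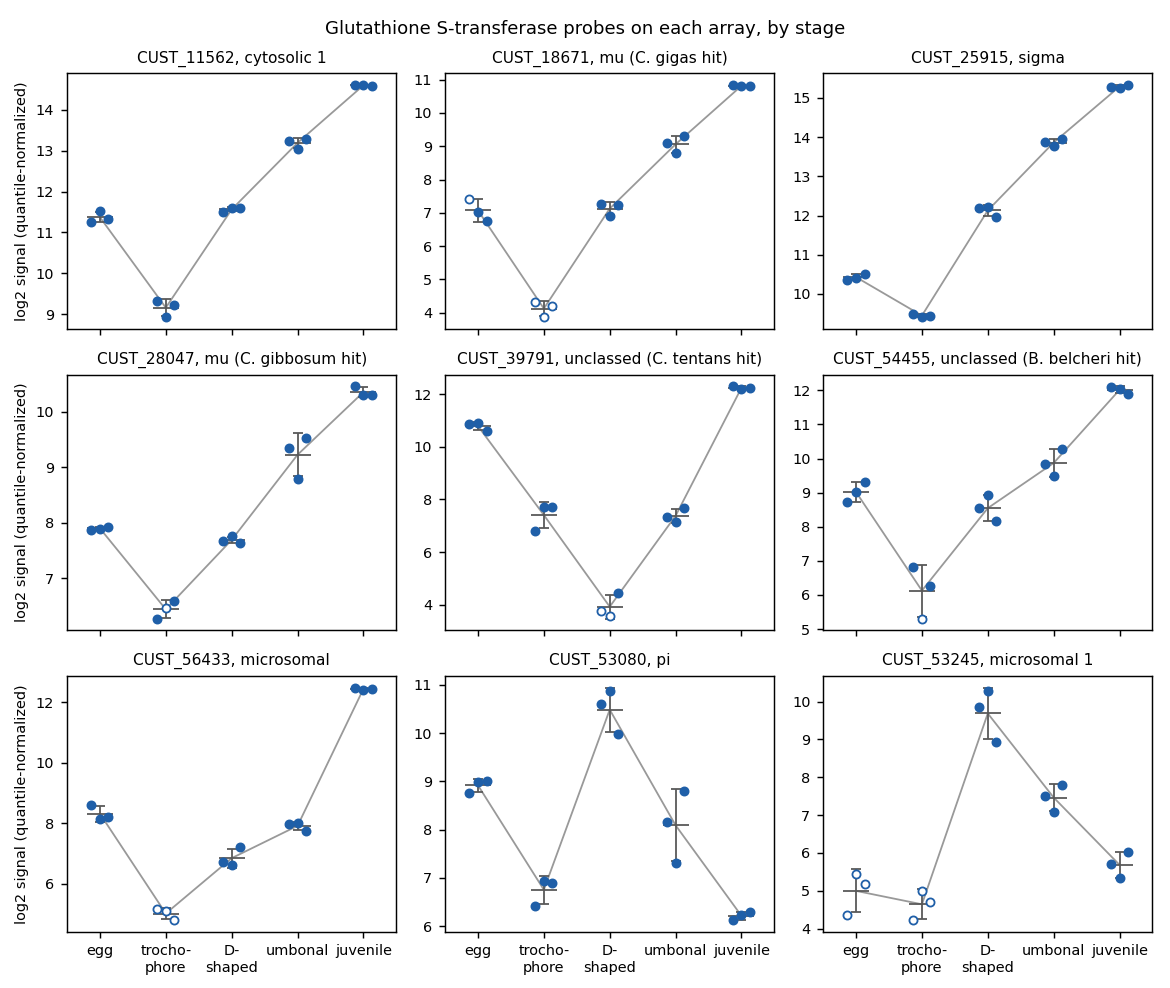
Normalized log2 signal (y axis) of the 9 GST probes at the 5 stages (x axis), with a point for each of 3 arrays per stage, open where the spot was not well above background, a bar for the mean with its SD, and a line through the stage means. The y axes differ between probes and do not start at 0. The plots of 6 probes dip at the trochophore stage and climb to the juvenile, CUST_39791 is lowest at the D-shaped stage, and CUST_53080 and CUST_53245 peak there.

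A group of 6 probes rose at each step from the trochophore stage to the juvenile: cytosolic GST 1, both mu GSTs, the sigma GST, the unclassed GST similar to Branchiostoma belcheri tsingtauense and the microsomal GST similar to Venerupis philippinarum. For CUST_28047 and CUST_56433 some of these steps fell under 2-fold with other settings, given with each below. Cytosolic GST 1 (CUST_11562) gave 11.26, 11.51 and 11.34 in eggs, 9.32, 8.92 and 9.23 in trochophores, 11.51, 11.60 and 11.59 in D-shaped larvae, 13.24, 13.06 and 13.29 in umbonal larvae and 14.61, 14.61 and 14.59 in juveniles. The 3 arrays of each stage lay apart from those of the next, and D-shaped arrays overlapped only with those of eggs. In consecutive order from the trochophore stage the level was 5.30-fold higher in D-shaped larvae (log2 2.41, SE 0.14), 3.10-fold higher in umbonal larvae (1.63) and 2.66-fold higher in juveniles (1.41).

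The sigma GST (CUST_25915) belongs to a class that makes prostaglandins in vertebrates and gave rise to lens crystallins in cephalopods. Its values were 10.36, 10.41 and 10.52 in eggs, 9.49, 9.41 and 9.43 in trochophores, 12.20, 12.22 and 11.97 in D-shaped larvae, 13.88, 13.76 and 13.95 in umbonal larvae and 15.29, 15.25 and 15.33 in juveniles. No arrays of different stages overlapped, and the order of levels was juvenile, umbonal, D-shaped, egg and trochophore. From the trochophore stage the steps were 6.42-fold (log2 2.68, SE 0.12), 3.33-fold (1.73) and 2.69-fold (1.43).

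Both mu GSTs, of a class that conjugates epoxides in mammals, were lowest in trochophores and highest in juveniles. For the mu GST similar to Crassostrea gigas (CUST_18671) the arrays gave 7.43, 7.04 and 6.76 in eggs, 4.31, 3.87 and 4.20 in trochophores, 7.26, 6.91 and 7.22 in D-shaped larvae, 9.09, 8.80 and 9.30 in umbonal larvae and 10.84, 10.81 and 10.79 in juveniles. It was well above background on 0 of 3 trochophore arrays and 2 of 3 egg arrays, so the rise to the D-shaped stage is given as at least 2.13-fold (fitted log2 3.0), and it was followed by rises of 3.81-fold (1.93, SE 0.20) and 3.38-fold (1.76). Egg and D-shaped arrays overlapped, while the other neighbouring stages in the order of levels did not.

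For the mu GST similar to Cyphoma gibbosum (CUST_28047) the arrays gave 7.87, 7.89 and 7.93 in eggs, 6.28, 6.46 and 6.59 in trochophores, 7.68, 7.76 and 7.64 in D-shaped larvae, 9.35, 8.79 and 9.53 in umbonal larvae and 10.46, 10.30 and 10.30 in juveniles. The steps were 2.38-fold (log2 1.25, SE 0.17), 2.89-fold (1.53) and 2.18-fold (1.13), and umbonal array 2 was lower than the other two. Without umbonal array 2 the last step was 0.91 on the log2 scale, under 2-fold, and with spike-in scaling it was 0.92. The first step was 0.78 with normexp background correction, also under 2-fold.

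The unclassed GST similar to Branchiostoma belcheri tsingtauense (CUST_54455) gave 8.73, 9.01 and 9.31 in eggs, 6.82, 5.30 and 6.26 in trochophores, 8.54, 8.92 and 8.18 in D-shaped larvae, 9.85, 9.48 and 10.28 in umbonal larvae and 12.10, 12.05 and 11.90 in juveniles. Its trochophore arrays were the most scattered of the 9 probes at that stage (SD 0.77, n = 3), with 2 of 3 well above background, and egg and D-shaped arrays overlapped. The steps were 5.35-fold (log2 2.42, SE 0.34), 2.50-fold (1.32) and 4.42-fold (2.15), the last being larger than the one before it.

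The microsomal GST similar to Venerupis philippinarum (CUST_56433) rose mostly at the last step. The arrays gave 8.61, 8.12 and 8.20 in eggs, 5.15, 5.09 and 4.80 in trochophores, 6.71, 6.62 and 7.20 in D-shaped larvae, 7.98, 8.0 and 7.76 in umbonal larvae and 12.47, 12.39 and 12.45 in juveniles. No neighbouring stages in the order of levels overlapped. Juveniles stood 23.1-fold above umbonal larvae (log2 4.53, SE 0.18), while the step from D-shaped to umbonal larvae was 2.10-fold (1.07). The probe was well above background on 0 of 3 trochophore arrays, so the rise from there to the D-shaped stage is at least 1.74-fold (fitted log2 1.83), and it was 0.91 on the log2 scale with normexp background correction, under 2-fold. The D-shaped to umbonal step fell under 2-fold with only the D-shaped array of the umbonal slide (0.71), without D-shaped array 2 (0.96) and with normexp (0.63).

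The unclassed GST similar to Chironomus tentans (CUST_39791) fell to the D-shaped stage and rose after it. Its levels were 10.86, 10.89 and 10.62 in eggs, 6.82, 7.70 and 7.70 in trochophores, 3.76, 3.58 and 4.44 in D-shaped larvae, 7.32, 7.16 and 7.66 in umbonal larvae and 12.30, 12.20 and 12.22 in juveniles. Trochophore and umbonal arrays overlapped, and D-shaped arrays lay below all others, with 1 of 3 well above background. The D-shaped level was 11.2-fold below that of trochophores (log2 -3.48, SE 0.26), the umbonal level 10.9-fold above that of D-shaped larvae (3.45), and the juvenile level 29.0-fold above that of umbonal larvae (4.86).

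The pi GST and the microsomal GST 1 peaked in D-shaped larvae, the first shelled stage, and fell at both later steps. For the pi GST (CUST_53080), of a class found in many tissues in mammals, the arrays gave 8.76, 8.99 and 9.0 in eggs, 6.41, 6.94 and 6.90 in trochophores, 10.60, 10.87 and 9.98 in D-shaped larvae, 8.16, 7.31 and 8.80 in umbonal larvae and 6.12, 6.22 and 6.29 in juveniles. After quantile normalization D-shaped arrays lay above all others and juvenile arrays below all others, whereas egg and umbonal arrays overlapped. The processed signals before normalization were 47.2, 118 and 108 in trochophores and 175, 162 and 158 in juveniles, so trochophores were then lower. Juvenile arrays were brighter as a whole, with 75th percentiles of 11.0 to 11.3 on the log2 scale against 9.8 to 10.7 for trochophores. From trochophore to D-shaped larvae the rise was 13.3-fold (log2 3.73, SE 0.32), and it was followed by falls of 5.27-fold (-2.40) and 3.67-fold (-1.88). The probe was well above background on all 15 arrays.

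The microsomal GST 1 (CUST_53245, most similar to a human protein) was well above background on 0 of 3 egg and 0 of 3 trochophore arrays and on all 9 arrays of the later stages. D-shaped arrays gave 9.85, 10.27 and 8.94, umbonal arrays 7.51, 7.09 and 7.79 and juvenile arrays 5.71, 5.33 and 6.02, without overlap. In eggs the values were 4.36, 5.44 and 5.19, the first being the shared lowest signal of that array, and in trochophores 4.23, 5.01 and 4.70. The D-shaped level was at least 12.5-fold above that of trochophores (fitted log2 5.04), the umbonal level 4.66-fold below that of D-shaped larvae (-2.22, SE 0.37) and the juvenile level 3.43-fold below that of umbonal larvae (-1.78, and -0.95 with normexp, under 2-fold).

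For both of these probes D-shaped array 3, on the other slide, was the lowest of the 3 after normalization. The processed signals before normalization were 763, 801 and 770 for microsomal GST 1 (CUST_53245) and 1253, 1184 and 1562 for the pi GST (CUST_53080), so array 3 was not the lowest for the pi GST and lay between the others for microsomal GST 1. Array 3 was brighter as a whole, however, with a 75th percentile of 11.19 on the log2 scale against 10.28 and 9.94 for arrays 1 and 2. After the 75th-percentile shift it was the lowest of the 3 for both probes. Within slide 2 the falls to the umbonal stage were -1.47 for microsomal GST 1 and -1.89 for the pi GST on the log2 scale, from D-shaped array 3 alone. Within slide 1 the rises from the trochophore stage were 5.41 (fitted) and 3.98. The part of the slide in these values was not tested.

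Counted over the list, 8 GST probes were higher and 1 lower at the step from trochophore to D-shaped larvae, where 16.8% of the 42195 probes tested were called higher and 16.6% lower, 33.5% in all. Called means that limma gave a p below 0.05 after Benjamini-Hochberg adjustment, with a fold of 2 or more. At the step to umbonal larvae 7 were higher and 2 lower (16.2% and 15.8% of all probes tested, 32% in all), and at the step to juveniles 7 were higher and 2 lower (13.4% and 15.9%, 29.3% in all). Since the list was chosen for these changes, the counts are not read against those shares. The median log2 fold changes of the 9 probes at these 3 steps were 2.42, 1.53 and 1.43, beside -0.16, -0.07 and -0.11 over all probes tested. All 3 steps were called for 1974 probes of the array, 4.74% of those tested at each, and for all 9 GST probes, by which the study chose them. Of the 1974, 9.17% rose at each, as 6 GST probes did, 6.38% fell and then rose at both later steps, as 1 did, and 16.1% rose and then fell at both, as 2 did. Among the other 17 probes of the tyrosine list, 16 were called at all 3 steps and 4 of these rose at each.

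**Figure D2:**
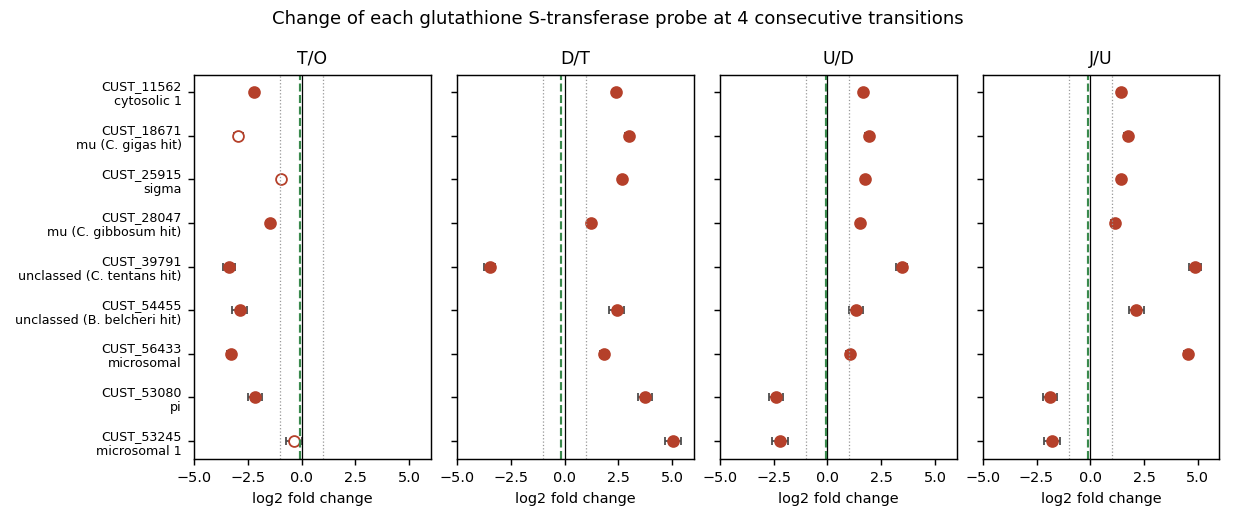
Log2 fold change (x axis, later minus earlier stage, with SE from limma over 15 arrays) of the 9 GST probes (y axis) at the 4 consecutive steps, T/O being trochophore against eggs, D/T D-shaped against trochophore, U/D umbonal against D-shaped and J/U juvenile against umbonal, with filled markers where the change was called and open ones where it was not, dotted lines at a 2-fold change and a dashed line at the median of all probes tested. Fitted values are drawn, also where the text gives a lower bound. The values at T/O all lie below 0. That of CUST_53245, not well above background on any array of either stage, is 0.28 with spike-in scaling. CUST_39791 at D/T and CUST_53080 and CUST_53245 at U/D and J/U lie opposite to the other probes.

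The study did not choose the probes on the first step, from eggs to trochophores, but the trochophore arrays entered the choice through the step that follows, which favours low trochophore levels where a probe rises next. The first step is therefore also a description, with no p-values. Of the 7 GST probes past the filter on dim signal, 6 were called lower and 0 higher, while 27.1% of the 38150 probes tested on the array were called lower and 26% higher, 53.1% in either direction. In all 7 every trochophore array lay below every egg array, and of 38127 probes of the array past the same filter 78.4% had no overlap, in one direction or the other. Of the remaining members, CUST_18671 had no overlap either and CUST_53245 overlapped. The median log2 fold change of the 9 was -2.22, beside -0.07 over all probes tested.

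The unclassed GST similar to Chironomus tentans (CUST_39791) fell 10.4-fold (log2 -3.38, SE 0.26), and the one similar to Branchiostoma belcheri tsingtauense (CUST_54455) 7.42-fold (-2.89, SE 0.34). Cytosolic GST 1 (CUST_11562) fell 4.65-fold (-2.22, SE 0.14) and the pi GST (CUST_53080) 4.49-fold (-2.17, SE 0.32). The microsomal GST similar to Venerupis philippinarum (CUST_56433) was at least 4.84-fold lower (fitted -3.30). Soluble and membrane-bound classes were thus both among the probes that fell.

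The fall of the mu GST similar to Cyphoma gibbosum (CUST_28047) was 2.74-fold (log2 -1.46, SE 0.17), and it depended on the scaling, being -0.90 after a 75th-percentile shift, -0.98 with normexp and -0.43 with spike-in scaling, all under 2-fold. The sigma GST (CUST_25915) was 1.97-fold lower (-0.98, SE 0.12), just under the 2-fold threshold. With spike-in scaling its fall was smaller. The median of all probes tested at this step was then 0.42, against -0.07 after quantile normalization, and the cause was not tested. The mu GST similar to Crassostrea gigas (CUST_18671) did not pass the filter, because neither stage was well above background on all arrays. Its trochophore level was at least 2.05-fold lower. For microsomal GST 1 (CUST_53245) no array of either stage was well above background and no fold is given.

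Without egg array 1 the count was 8 lower of 8 past the filter, beside 28.6% of all probes, and with the normalization repeated on the other 14 arrays it was 7 of 8, beside 28.1%. Both counts took in the mu GST similar to Crassostrea gigas (CUST_18671), at -2.77 and -2.86 on the log2 scale. The sigma GST (CUST_25915) was at -1.02 without the array and at -0.997 with the normalization repeated, the latter a little under 2-fold.

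The D-shaped stage was also set against eggs, a comparison chosen after the values were seen and given with 95% confidence intervals of the fit. After quantile normalization 4 of the 6 rising probes had intervals that held 0, and this depended on the scaling. The difference on the log2 scale was 0.19 (-0.10 to 0.48) for cytosolic GST 1 (CUST_11562), 0.06 (-0.37 to 0.48) and -0.21 (-0.58 to 0.17) for the mu GSTs CUST_18671 and CUST_28047, and -0.47 (-1.20 to 0.25) for CUST_54455. An interval that holds 0 does not show equal levels. For CUST_28047 every D-shaped array (7.64 to 7.76) lay below every egg array (7.87 to 7.93). With spike-in scaling all 4 stood above the egg level, at 0.99, 1.98, 1.58 and 1.05, and after the 75th-percentile shift CUST_18671 (0.95) and CUST_28047 (0.55) did. The sigma GST (CUST_25915) stood above the egg level by 1.70 (1.44 to 1.96), and by 2.73 with spike-in scaling. The microsomal GST CUST_56433 stood below it, at -1.47 (-1.87 to -1.07), but at 0.27 (-0.17 to 0.71) with spike-in scaling.

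Among the other 3 probes, the pi GST (CUST_53080) stood 1.57 (0.87 to 2.26) above the egg level at the D-shaped stage and CUST_39791 below it, at -6.86 (-7.43 to -6.29), with 1 of 3 D-shaped arrays well above background. With spike-in scaling these were 3.02 and -5.93. The fitted value of microsomal GST 1 (CUST_53245), 4.69, was measured against egg arrays that were not well above background. Without egg array 1, the 4 intervals still held 0 and the values of the other 5 probes were 1.66 (CUST_25915), -1.32 (CUST_56433), 1.49 (CUST_53080), -6.83 (CUST_39791) and 4.37 (CUST_53245).

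From eggs to juveniles, given as a description because the juvenile arrays entered the choice of probes, 7 GST probes were higher, 1 was lower and 1 was not called, beside 32.4% of all 52167 probes tested called higher and 32.8% lower, 65.2% in all. The sigma GST (CUST_25915) was 29.1-fold higher in juveniles, the microsomal GST CUST_56433 17.4-fold, the mu GST CUST_18671 13.4-fold and cytosolic GST 1 (CUST_11562) 9.39-fold. CUST_54455 was 7.99-fold higher and the mu GST CUST_28047 5.46-fold. CUST_39791 was 2.73-fold higher, and 0.68 on the log2 scale with the slide as a block, which is under 2-fold. With spike-in scaling these 7 log2 differences, in the same order, were 5.87, 5.72, 5.75, 3.95, 4.5, 4.42 and 2.47, against 4.86, 4.12, 3.74, 3.23, 3.0, 2.45 and 1.45 after quantile normalization. Without egg array 1 no call of the 9 probes changed and no value moved by more than 0.32.

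The pi GST (CUST_53080) was 6.52-fold lower in juveniles than in eggs, a difference that depended on the scaling (log2 -2.71, and -0.40 with spike-in scaling). Microsomal GST 1 (CUST_53245) had juvenile arrays that overlapped with egg arrays, none of which was well above background. Its fitted value of 0.69 became 2.01 after a 75th-percentile shift, 3.31 with spike-in scaling and 1.81 with the slide as a block, all past the threshold. The median of all probes tested between eggs and juveniles was itself 0.51 after the 75th-percentile shift and 1.81 with spike-in scaling, against 0.00 after quantile normalization, so the array as a whole shifted the same way.

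**Figure D3:**
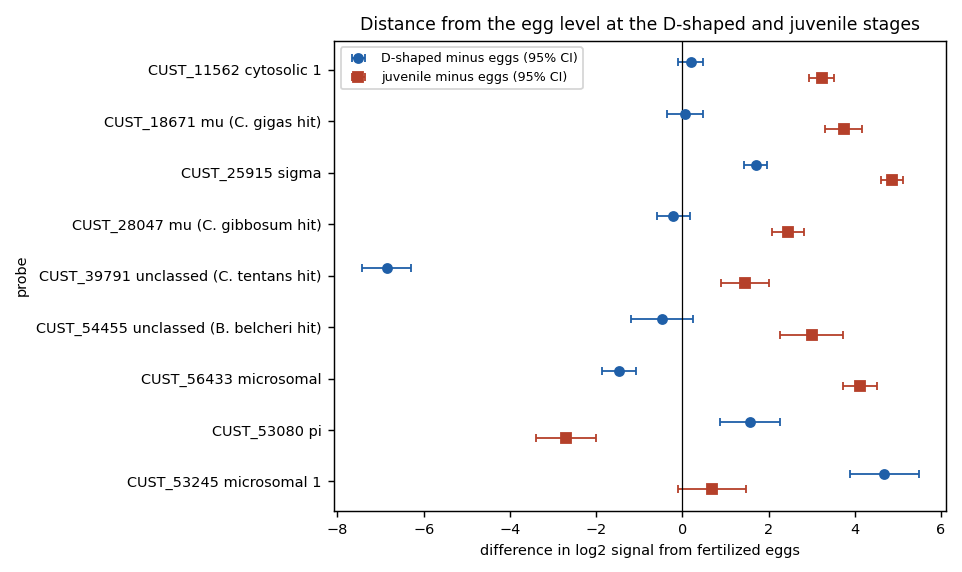
Difference from fertilized eggs in log2 signal (x axis, 95% confidence intervals of the limma fit, 3 arrays per stage) for the 9 GST probes (y axis) at the D-shaped stage (circles) and in juveniles (squares). After quantile normalization, as plotted, the D-shaped values of 4 probes have intervals that hold 0, which is not so with spike-in scaling, and the juvenile value of CUST_53080 lies at -2.71, below the eggs (-0.40 with spike-in scaling).

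Likeness between probes was described by Pearson's r over the 15 arrays, which share stages and slides, so r mostly reflects the stage means. Of the 36 pairs of GST probes, 27 had r above 0 and 9 below 0, with a median of 0.54. The 6 probes that rose at each step formed 15 pairs with r from 0.81 to 0.996, the highest between cytosolic GST 1 (CUST_11562) and the mu GST CUST_18671. They were grouped by that shared pattern of stage means, so high r among them is in part built in. The pi GST and microsomal GST 1, one soluble and one of the membrane, had r = 0.73. The lowest r, -0.72, was between CUST_39791 and microsomal GST 1 (CUST_53245), whose lowest and highest means both lay at the D-shaped stage.

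**Figure D4:**
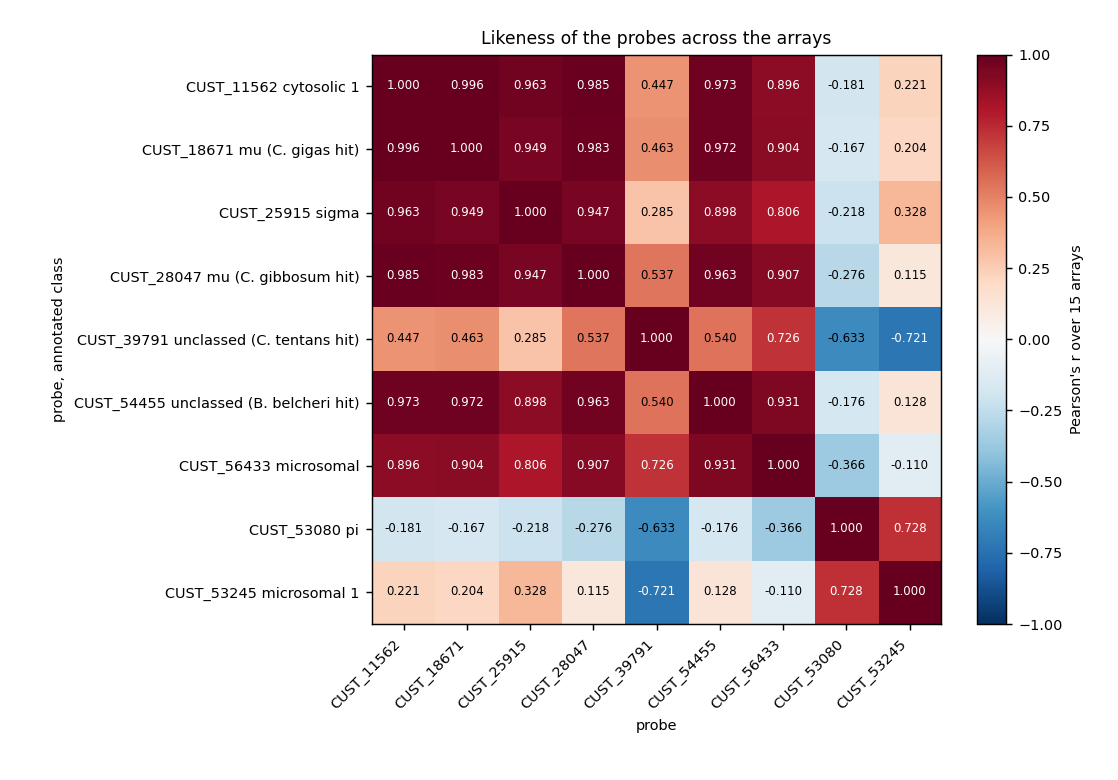
Pearson's r over 15 arrays (colour scale and printed value) between each pair of the 9 GST probes (both axes). The 6 probes that rose at each step, grouped by that pattern, are all at 0.81 or above with each other. The pi GST CUST_53080 is below 0 with all probes but microsomal GST 1.

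Each GST probe was also set against 46 other probes, the other 17 of the tyrosine list and the further probes of the study's list of genes related to biomineralization. Aspartate aminotransferase (CUST_56212), which moves amino groups between amino acids and keto acids, was most alike for cytosolic GST 1 (r = 0.97), the mu GST CUST_18671 (0.96) and the mu GST CUST_28047 (0.99). An astacin-like protein (CUST_58138), of a family of metalloproteases, was most alike for CUST_54455 (0.94) and for the microsomal GST CUST_56433 (0.96). PFMG12 (CUST_52216), named as a mantle gene of the pearl oyster, was most alike for CUST_39791 (0.91). For the pi GST and microsomal GST 1 it was a protein with an ShTK domain (CUST_36101), at 0.57 and 0.86, so that the pi GST had no close match among these probes.

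The closest match of the sigma GST (CUST_25915) was CUST_27372, annotated as the nematode GST CBR-GST-11 (r = 0.99), which belongs to the same tyrosine list and was chosen for the same later steps. Its stage means were 8.92 ± 0.04 in eggs, 8.43 ± 0.29 in trochophores, 11.66 ± 0.58 in D-shaped larvae, 13.59 ± 0.11 in umbonal larvae and 14.95 ± 0.04 in juveniles (SD, n = 3). It was not called from eggs to trochophores (log2 -0.49) and was then 9.36-fold, 3.82-fold and 2.56-fold higher at the later steps. A second pi GST (CUST_35010), from a list of probes that rose in juveniles, kept a mean between 4.46 and 5.43 at the first 4 stages, with at most 2 of 3 arrays well above background, and reached 10.11 ± 0.12 (SD, n = 3) in juveniles. The juvenile level of CUST_35010 was above that of umbonal larvae by 5.64 on the log2 scale, the step at which the first pi GST (CUST_53080) was 3.67-fold lower. CUST_27372 and both pi GSTs were all listed for a change at this step.

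Other probes of glutathione metabolism, the pathway that makes, reduces and uses glutathione, were taken from the study's pathway lists, which hold probes that changed at 1 of the first 3 steps. Among these 28 probes, which include CUST_27372, 4 were called higher and 9 lower of 23 tested from eggs to trochophores (26% and 27.1% of all probes tested). To D-shaped larvae 11 were higher and 3 lower of 25 (16.8% and 16.6%), and to umbonal larvae 6 higher and 8 lower of 27 (16.2% and 15.8%). The step to juveniles did not enter that choice, although it shares the umbonal arrays. CUST_27372 is an exception, since the tyrosine list took it for a change at this step too. There 4 of the 28, CUST_27372 among them, were higher, 3 lower and 21 not called, so that 25% were called beside 29.3% of all probes tested. Their median log2 fold change there was 0.12, against 1.43 for the 9 GST probes, which were listed for a change at that step.

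Drug and xenobiotic metabolism by cytochrome P450, the pathways in which GSTs act on products of the oxidising enzymes, gave 30 probes by the same lists. From eggs to trochophores 3 were called higher and 12 lower of 19 tested, to D-shaped larvae 17 and 0 of 25, to umbonal larvae 17 and 5 of 30 and to juveniles 5 and 6 of 29. The shares of all probes tested that were called higher and lower at these steps were 26% and 27.1%, 16.8% and 16.6%, 16.2% and 15.8%, and 13.4% and 15.9%. The probes were listed for changes at the first 3 of these steps, so their counts there are not read against those shares. Some of these probes are in both sets of pathways, and the lists used here are cut in alphabetical order, so that the counts cover a part of each pathway.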

How the data were processed

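The 15 scanner files hold Cy3 intensity values that, per the file headers, came from Agilent Feature Extraction 11.5.1.1, which subtracted background and detrended each array before deposit and set the flags for spots that were outliers, saturated or well above background. The authors deposited log2 values from GeneSpring GX for 58583 probes. In each column these differ from the log2 signal by a single constant, near the 75th percentile of the array, and they served as an alternative. The authors' names and pathway lists came from the paper.

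Control and outlier spots were left out and 58883 probes were averaged over their spots, log2-transformed, quantile-normalized between the 15 arrays and held at a floor of signal 1. No probe spot was saturated. A single limma 3.58.1 model (R 4.3.3) covered the 15 arrays with a mean for each stage, and p-values were adjusted over all probes tested. Tested were probes for which either stage had all 3 arrays well above background, and calls needed an adjusted p below 0.05 and a fold of 2 or more. A fold is a lower bound ("at least") where the dimmer stage was well above background on 0 arrays: the brighter stage's mean minus a mean over the dim stage's arrays, in which each array counts with the probe's value or with the lowest value of any probe well above background, whichever is higher. The files hold no counts, so the number of arrays limits the precision.

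The members, lists and comparisons were chosen with earlier results of these data known. The comparison of trochophores with eggs had been set up as a test and is given as a description, because the trochophore arrays entered the choice of the probes. Named were all 9 GST probes, 2 further GST probes, the most alike of 46 listed probes, and shematrin-4 and Pif. Alternatives were other scalings, normexp (offset 50, on the median signal), other filters, p without adjustment, the arrays of both stages alone, replicate and slide blocks, and each array left out. Leaving out egg array 1 before the normalization, and D-shaped larvae against eggs under the alternatives, were added after seeing the data. The fit was tested on simulated data. The study's own significance method was not run, and no enrichment was tested. Python 3.11.15 was used for tables and plots.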

Additional observations from a re-analysis of the deposited data

How the results depend on the processing

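The number of GST probes called was within 1.5 times the reported one under all alternatives except the filter for probes well above background on all 6 arrays, which leaves fewer probes to test: 3 called from eggs to trochophores and 3 from trochophores to D-shaped larvae. With each array left out in turn the counts ran from 6 to 8 (eggs to trochophores), 9 to 9 (to D-shaped larvae), 8 to 9 (to umbonal larvae), 8 to 9 (to juveniles) and 8 to 8 (eggs to juveniles), and the medians of the log2 fold changes from -2.30 to -2.15, 2.29 to 2.71, 1.38 to 1.70, 1.38 to 1.47 and 2.86 to 3.14, in that order. With spike-in scaling the medians were -1.91, 3.19 and 1.82 at the first 3 steps and 4.42 from eggs to juveniles, where the medians of all probes were 0.42, 0.43, 0.34 and 1.81. With normexp they were -1.53, 1.59 and 1.19 at the first 3 steps. Of the 45 log2 fold changes of single GST probes, 25 moved by over 1.5 times in fold with spike-in scaling, 16 with normexp, 4 with the 75th-percentile shift and 4 with the slide as a block. From eggs to juveniles the median was 3.12 with the 75th-percentile shift, 3.12 with the authors' processed values 3.20 with the slide as a block and 2.80 with the normalization repeated without egg array 1, which was chosen after seeing the data. The cause of these shifts was not tested. Over all probes, calls from eggs to juveniles numbered 16897 higher and 17101 lower after quantile normalization, 22076 and 14769 after the 75th-percentile shift, and 31934 and 7029 with spike-in scaling. With spike-in scaling the sign changed for microsomal GST 1 (CUST_53245) from eggs to trochophores, 0.28, where no array of either stage was well above background. It also changed for CUST_56433 in D-shaped larvae against eggs, 0.27. Differences of D-shaped larvae from eggs whose intervals held 0 also took either sign between settings. Replicate numbers did not pair the arrays (r of deviations -0.20 to 0.11 over 12 pairs of same-numbered arrays in consecutive stages), and with the replicate number as a block the counts were 6, 9, 9, 9 and 8, as without it, and changed no call of a single GST probe. Leaving out 1 array changed the call of single GST probes 5 times, all named above with the array except that of the sigma GST (CUST_25915), at -1.01 from eggs to trochophores without trochophore array 1. Weak signal limits the trochophore stage most, where 16 of 27 values were well above background, beside 61.8% to 70.3% of all probe spots on those arrays.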
